A study of Mus musculus with 40 samples.

Results

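The genes described are the 84 protein-coding mouse genes for the proteins of the cytosolic ribosome, out of 39012 genes measured. They were chosen by name alone: symbols that start with Rpl or Rps followed by a digit, Rplp0, Rplp1, Rplp2 and Rpsa, without the Rps6 kinases, Rps19bp1, Rpl7l1 and names ending as pseudogenes do. This left out 18 symbols that start the same way. Of the 84 genes, 33 encode proteins of the small (40S) subunit and 51 of the large (60S) subunit. The core proteins number 77, with 31 in the 40S and 46 in the 60S subunit, and 7 genes are paralogs of a core gene: Rpl3l, Rpl10l, Rpl22l1, Rpl36al, Rpl39l, Rps27l and Rps27rt.

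RNA was measured in 40 tumors of EMT6, a mouse mammary carcinoma line of BALB/c origin. Cells were placed in the mammary pad of female Balb/C mice aged 8 to 12 weeks, and treatment started after 20 days, when tumors measured about 400 mm3. Intravenous doses followed on days 0, 1 and 2, and tumors were collected on day 6. There were 4 groups of 10 tumors. Controls were given 400 µg of an isotype antibody that the labels call Inactive Anti-PD-L1 Isotype Control. The trap control, Anti-PDL1 (mut) /TGFβ Trap control, was given at 492 µg. Anti-PD-L1 was given at 400 µg, and the bifunctional Anti-PDL1/TGFβ Trap at 492 µg. PD-L1 is an inhibitory ligand of T cells, and a TGFβ trap is a receptor fragment that binds the growth factor TGFβ. Every tumor thus carried the same transplanted line in a host with an intact immune system, and every group received an antibody-like protein. Libraries C0449 to C0464, called set 1, hold the 10 isotype control tumors and 6 of the trap control. Libraries C0465 to C0488, called set 2, hold the other 4 trap control tumors, the 10 anti-PD-L1 tumors and the 10 bifunctional tumors. The labels name no batch. Treatments were compared only within a set.

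Ribosomal proteins are assembled with ribosomal RNA into the subunits that translate messenger RNA. Their genes are among the most actively transcribed in growing cells, are kept at similar levels to each other, and are raised by the growth regulators Myc and mTOR. Many of their messenger RNAs begin with a run of pyrimidines, the terminal oligopyrimidine (TOP) start, through which mTOR controls their translation. Each gene has also left many processed pseudogenes in the genome, copies of its messenger RNA without introns, so that short reads from the gene can match several places.

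The deposited values are gene counts estimated by sharing out reads that match several places, so it matters how many reads of a gene were given to the gene itself. In the GENCODE M21 annotation, 71 of the 84 genes had near-identical copies, 394 in all. The gene's own share of the reads given to it and its copies was at least 90% in 54 members, taking the median over 40 libraries. The other 30 members lay below 90%, with 22 below 50% and 16 below 10%. Copies held between 28.3% and 31.5% of the joined reads over the single libraries. The members at or above 90% are called resolved below.

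**Figure D1:**
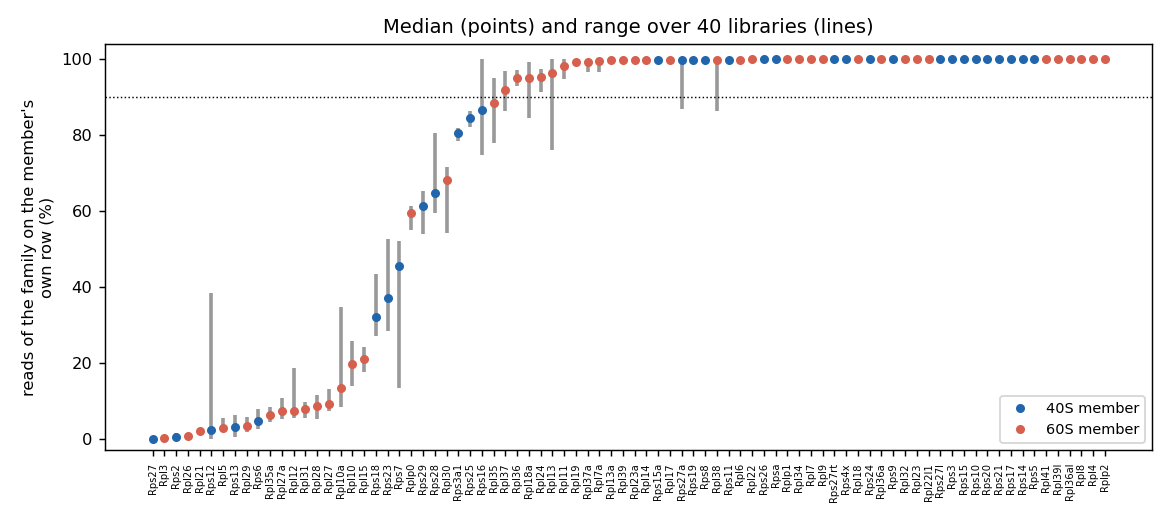
Share of reads, in percent of the reads given to a member and its near-identical copies, that were given to the member itself, as the median over 40 libraries with a line over their range, ordered by share, for members whose family had reads. Blue points are 40S and red points 60S members, and the dotted line marks 90%. Rps27, Rpl3, Rps2 and Rpl26 lie below 1%.

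Rps27 is the extreme case, and its sequence is shown for comparison with that of a relative. Rps27 had 0 counts in each of the 40 libraries, although it encodes a core protein of the 40S subunit. Its intronless relative Rps27rt, on chromosome 9, held a median of 6292 counts. The coding sequences of both genes, from the GENCODE M21 transcripts, are 252 bases long and differ at 0 bases. Why the reads were given to Rps27rt and not to Rps27 was not tested.

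Rps27 and Rps27rt: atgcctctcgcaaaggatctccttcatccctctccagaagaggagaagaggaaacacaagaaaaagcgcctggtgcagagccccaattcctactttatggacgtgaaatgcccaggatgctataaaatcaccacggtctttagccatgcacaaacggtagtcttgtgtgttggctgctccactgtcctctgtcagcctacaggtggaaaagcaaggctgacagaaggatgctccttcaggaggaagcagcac

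Around the annotated starts the genes differ up to a point just at the start and are then the same for 38 bases. The windows below, from RefSeq (build GRCm38.p6), run from 25 bases before each start to 20 bases after it, and capitals mark the bases in common, which go on for 38 bases in all.
Rps27, chr3:90213629-90213673, minus strand: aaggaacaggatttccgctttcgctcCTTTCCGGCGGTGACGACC
Rps27rt, chr9:114982720-114982764, minus strand: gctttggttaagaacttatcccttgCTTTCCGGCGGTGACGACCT
Values given for Rps27rt therefore stand for reads that could come from either gene.

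Rpl3, a core protein of the 60S subunit, was given a median of 0.325% of its family's reads. Most of the rest lay in the processed pseudogene Rpl3-ps1 (chrX:13202571-13203780), with a median of 32742 counts against 89.7 for Rpl3. Over the 1209 coding bases of Rpl3 the copy has 2 substitutions, C57A and T786C, with the base of Rpl3 first and positions counted from the A of the start codon. Bases 17 to 96 of both sequences are shown, with base 57 in capitals, to show how little there is to tell the reads apart.
Rpl3: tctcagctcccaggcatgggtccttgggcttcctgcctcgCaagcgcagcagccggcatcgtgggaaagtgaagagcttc
Rpl3-ps1: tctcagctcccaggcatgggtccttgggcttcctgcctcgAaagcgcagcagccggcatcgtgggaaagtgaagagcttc
Other core members with low own shares were Rps2 (0.49%), Rpl26 (0.733%), Rpl21 (1.97%), Rps12 (2.27%, between 0% and 38.5% in single libraries) and Rps6 (4.68%). For Rps6, the S6 kinase substrate of the 40S subunit, the pseudogene Rps6-ps4 (chr2:75191073-75191822) held a median of 18635 counts. For calls that rest on unresolved members, values with the reads of the copies joined are given as well.

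Transcription starts of the members carried pyrimidine runs more often than those of other genes. RefSeq promoters were matched for 64 of the 84 members. A run of at least 5 pyrimidines that spanned the start base was found in 21 of them (32.8%), against 3191 of 27025 genes (11.8%). With a run anywhere within 5 bases of the start, the counts were 36 of 64 (56.2%) and 36.7%. The motif CCGGAAG, on either strand from 250 bases before to 50 bases after the start, occurred in 26 members (40.6%) and 9.93% of all genes. It holds the core GGAA bound by ETS factors. AAGATGGC, the core of the YY1 motif, occurred in 7.81% of members and 3.19% of all genes, and TATAAA in 10.9% and 15.7%. These are matches of letters in a window, and no binding was measured.

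Starts of members that recur in the results, and of Rpl7a for its long run, are shown from 25 bases before the start, with the start at base 26 of 40, and capitals mark the pyrimidine run that spans it.
Rpl7a, chr2:26910782-26910821, plus strand: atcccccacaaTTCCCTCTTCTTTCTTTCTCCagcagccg
Rps18, chr17:33955651-33955690, minus strand: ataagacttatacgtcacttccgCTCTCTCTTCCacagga
Rps6, chr4:86857353-86857392, minus strand: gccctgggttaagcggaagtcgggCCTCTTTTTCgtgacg
Rps15a, chr7:118116133-118116172, minus strand: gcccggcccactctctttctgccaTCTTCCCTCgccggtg
Rpl39, chrX:37085208-37085247, minus strand: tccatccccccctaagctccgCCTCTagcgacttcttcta
Rpl22l1, chr3:28805483-28805522, plus strand: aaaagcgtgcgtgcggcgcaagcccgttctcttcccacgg
Rps27l, chr9:66946061-66946100, plus strand: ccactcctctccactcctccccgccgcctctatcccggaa
Rpl36al, chr12:69184053-69184092, minus strand: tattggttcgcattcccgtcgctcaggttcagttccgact
The core genes Rpl7a, Rps18, Rps6, Rps15a and Rpl39 have such a run, the longest of these in Rpl7a. The annotated starts of the paralogs Rpl22l1, Rps27l and Rpl36al shown here have none that spans the start. These starts are a selection and do not separate core genes from paralogs. The core genes Rps3, Rpsa, Rpl5, Rpl22 and Rps23 have no such run, while the paralog Rps27rt has a run of 6 bases.

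Library totals ran from 13495835 to 27658262 counts, median 24018638. Structural RNAs (Rn7s1, Rn7s2, mt-Rnr1 and mt-Rnr2) took 29.7% to 62.3% of counts in set 1 and 11.7% to 18% in set 2. Of the markers of EMT-6 carcinoma, Krt8 was present, with group medians from 30.2 to 110 TPM (a level scaled by transcript length and library), and Krt18 was lower, at 2.50 to 12.7 TPM. Krt7 and Epcam were low throughout, between 0.13 and 1.92 TPM. Skeletal muscle markers summed to 6473 CPM (counts scaled by library size) in trap control library C0463, 4191 in bifunctional library C0484 and 2172 in bifunctional library C0479, against a median of 1.52 in anti-PD-L1 tumors. C0479 also held 2156 CPM of keratinocyte markers and C0484 1306 CPM of adipocyte markers. Nothing in the labels says that the tumors of a group were pooled or shared a source, and no 2 libraries of a group agreed within sampling noise (smallest chi-square per degree of freedom 8.91).

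Core ribosomal protein genes were expressed at high and similar levels. Over the 47 resolved core members the median TPM, a level per length, ran from 118 to 910, with a median of 296. The 5 members with the highest median TPM were Rpl41 (910), the stalk protein gene Rplp1 (726), Rpl13a (668), Rpl32 (650) and Rps27rt (537). The lowest were Rpl3l and Rpl10l (0), Rps27 (0), Rpl39l (0.085) and Rpl3 (1.00), of which Rps27 and Rpl3 are the members whose reads lie in copies. These ranks were taken over all 40 libraries, and neighbors overlapped in range, as in Rpl13a (137 to 1004 TPM) and Rpl32 (100.4 to 961 TPM).

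The share of protein-coding counts taken by the 84 genes was lower in set 1 than in set 2, in whatever treatment. In isotype control tumors it ran from 2.94% to 4.18%, median 3.33%, and in the trap control tumors of set 1 from 2.66% to 3.49%, median 3.16%. In set 2 the 4 trap control libraries C0465, C0466, C0467 and C0468 had 4.48%, 5.67%, 4.20% and 4.33%. Anti-PD-L1 tumors lay between 3.84% and 6.00%, median 4.59%, and bifunctional tumors between 2.96% and 5.63%, median 4.22%. Within each set the groups overlapped. The means were 3.47 ± 0.394% (SD, n = 10) and 3.13 ± 0.308% (n = 6) in set 1, and 4.67 ± 0.677% (n = 4), 4.74 ± 0.625% (n = 10) and 4.20 ± 0.728% (n = 10) in set 2. With reads of copies joined, the means became 4.90% and 4.45% in set 1 and 6.51%, 6.59% and 5.85% in set 2, in the same order. Proteins of the 40S subunit took between 40% and 42.9% of the ribosomal protein reads in single libraries.

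**Figure D2:**
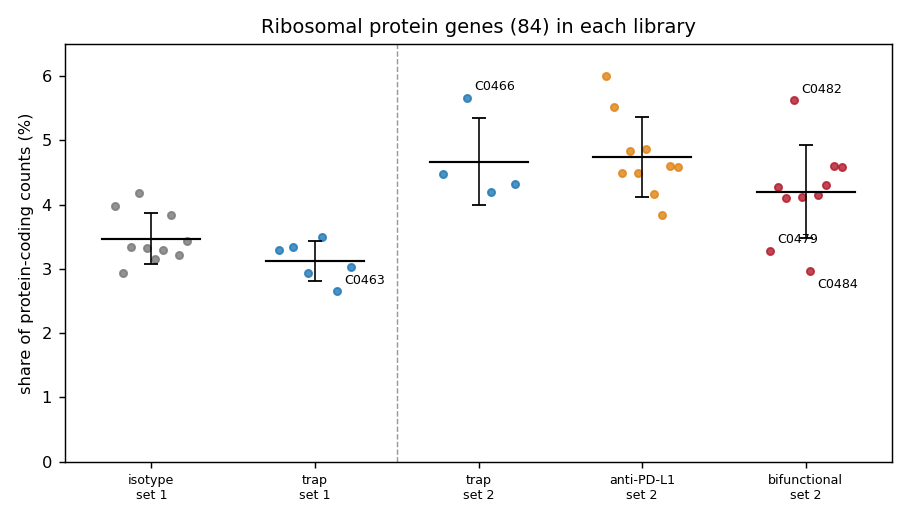
Share of protein-coding counts taken by the 84 ribosomal protein genes, in percent, 1 point per library, with lines for the group mean and SD, for the 5 combinations of treatment and set. The isotype and trap control libraries of set 1 lie between 2.66% and 4.18%, and the libraries of set 2 between 2.96% and 6.00%.

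Members moved together from tumor to tumor. Over the 51 resolved members with a median of at least 10 counts, the SD of log2 CPM within a group had a median of 0.31 in bifunctional tumors and 0.17 to 0.27 in the other groups. Once the mean of the 51 members in each library was removed, the medians were 0.06 to 0.10. Whole libraries moved in each group. In the other groups 48 to 51 of the 51 members lay below the group mean in the lowest library, and 47 to 51 above it in the highest. In the bifunctional group all 51 members lay below their group mean in C0484 and all 51 above it in C0482. C0484 was also the group's library with the most muscle and adipocyte marker RNA, and the part of this in its low values was not tested. Members that strayed most from the common movement were Rps27l, a p53-responsive paralog of Rps27, Rps27a, which encodes ubiquitin fused to a 40S protein, Rps26 and Rps14. Rps27l was among the 5 most variable in each of the 5 combinations of treatment and set.

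The first comparison within a set asked what the trap control did relative to the isotype control, in set 1. Ribosomal protein genes were slightly lower with the trap control, and 9 of the 79 that passed the low-count filter fell. Tests were made with edgeR's quasi-likelihood test on counts, with Benjamini-Hochberg adjustment over all genes and a threshold of 0.05. None rose. Across all 14183 genes tested, 3.19% rose and 4.15% fell. The median log2 fold change was −0.11 over the members and 0.02 over all genes, and the 9 comprised 5 proteins of the 40S subunit and 4 of the 60S. In bulk tumor RNA, fewer cells of a type and less RNA per cell cannot be told apart.

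Rps15a, a core 40S protein, separated the groups. It lay at 152 to 244 CPM, median 182, in the isotype control tumors, and at 110 to 141 CPM, median 129, in the trap control tumors. The groups did not overlap, as in 1.08% of all genes, and the log2 fold change of Rps15a was −0.59 (SE 0.099, edgeR adjusted p = 0.013). Rps27rt, which stands for Rps27 as well, lay at 142 to 222 CPM, median 170, and at 81.2 to 152 CPM, median 105. Its log2 fold change was −0.69 (SE 0.127, edgeR adjusted p = 0.013), with overlap between 142 and 152 CPM. Rps14, a 40S protein of the platform, went from 289 to 526 CPM, median 383, to 196 to 337 CPM, median 255. This was a fall by 0.68 (edgeR adjusted p = 0.0187), again with overlap.

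In the 60S subunit the paralog Rpl22l1 ran from 73.5 to 140 CPM, median 94.1, in isotype control tumors and from 56.5 to 77 CPM, median 65.5, with the trap control, so that the groups overlapped slightly. It fell by 0.58 (SE 0.121, edgeR adjusted p = 0.0184). Rpl39, a small protein at the peptide exit tunnel, lay at 95.5 to 144 CPM, median 116, and at 73.3 to 98.8 CPM, median 89.6. The ranges met only at their edges, and Rpl39 fell by 0.41 (edgeR adjusted p = 0.0232). Rpl22, the core partner of Rpl22l1, fell by 0.28 (edgeR adjusted p = 0.0481), from a median of 80.5 to 67.2 CPM. This call of Rpl22 was kept in only 3 of 16 fits that each left out 1 library.

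The remaining calls, Rps23, Rps7 and Rpl5, concerned members whose reads are split with copies. Rps23, a 40S protein of the decoding center, ran from 110 to 173 CPM, median 131, and from 73.5 to 99.9 CPM, median 82.8, without overlap. Its fall by 0.61 (edgeR adjusted p = 0.013) became a fall by 0.27 (adjusted p = 0.051) once the reads of its copies were joined. Rps7 had −1.09 (adjusted p = 0.0422) and, joined, −0.41 (adjusted p = 0.089). For Rpl5, which with Rpl11 binds the p53 regulator Mdm2, the log2 fold change was −0.32 (adjusted p = 0.0394) and −0.50 joined (adjusted p = 0.0175). In 16 fits that each left out 1 library, Rps7 kept its call in 7 and Rpl5 in 6. Joined reads also gave 9 members that fell (4.21% of all genes), 7 of them the same, with Rpl35a and Rps27a in place of Rps23 and Rps7.

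Other members did not pass. The highest log2 fold changes were those of Rpl10a (0.21), Rps2 (0.21) and Rpl26 (0.18), all members with low own shares. With copies joined these had −0.17, 0.05 and −0.21. Rpsa, the laminin receptor and 40S protein, had −0.15 (adjusted p = 0.273). The stalk proteins Rplp0, Rplp1 and Rplp2 had −0.01, −0.15 and 0.01. Rps19, which is mutated in Diamond-Blackfan anemia, had −0.19 (adjusted p = 0.282), Rpl11 −0.09, Rpl13a −0.21, Rps27a −0.34 and Rps6 −0.08. At an unadjusted p under 0.05 there were 20 members, against 26.2% of all genes, and the DESeq2 Wald test called 15 lower (6.71% of all genes). With limma on log2(TPM + 1) the count was 0, with 0.00705% of all genes lower.

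**Figure D3:**
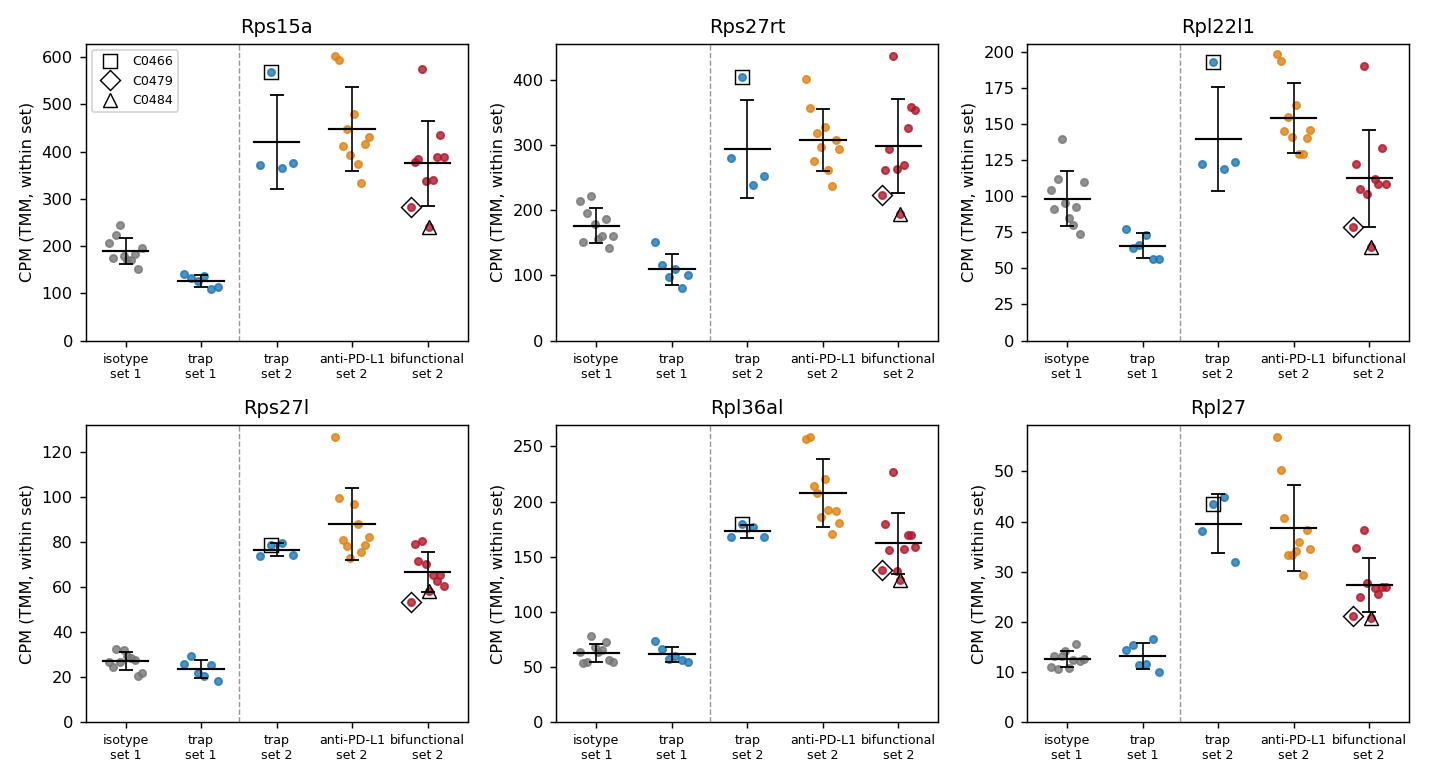
CPM of Rps15a, Rps27rt, Rpl22l1, Rps27l, Rpl36al and Rpl27 in single libraries (points), by treatment and set, with lines for the group mean and SD. Open symbols mark libraries C0466, C0479 and C0484, and CPM are scaled within each set, so heights are to be compared within a set only. In set 1 the trap control libraries of Rps15a lie below the isotype control libraries without overlap.

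The second comparison asked what the trap added to PD-L1 blockade, in set 2. Most ribosomal protein genes had lower values in bifunctional than in anti-PD-L1 tumors, and 14 of 81 fell, 5 of the 40S and 9 of the 60S subunit, while 0 rose. Over all 15704 genes tested, 12.4% rose and 13.1% fell, so that the share of members that fell was close to that of all genes. The median log2 fold change was −0.22 over the members and 0.01 over all genes, and 76 of the 81 lay below 0. For 0 of the members did the groups separate without overlap, as they did for 0.223% of all genes. Members have short transcripts, with their median at percentile 7.52 of the length that counts and TPM imply, and fold changes across genes ran with length (Spearman's rho = 0.22 over 13734 genes). With that trend removed, 4 members fell and 1 rose, against 9.18% and 14.3% of all genes.

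Rps27l carried the smallest adjusted p. It ran from 72.9 to 127 CPM, median 81.6, in anti-PD-L1 tumors and from 53.1 to 80.7 CPM, median 65.4, in bifunctional tumors, so that all 10 bifunctional libraries lay below the anti-PD-L1 median. Rps27l fell by 0.40 (SE 0.09, edgeR adjusted p = 0.00697). Rpl36al, the autosomal paralog of Rpl36a, ran from 170 to 259 CPM, median 200, and from 129 to 227 CPM, median 158. It fell by 0.36 (edgeR adjusted p = 0.0116). Rpl22l1 ran from 129 to 198 CPM, median 145, and from 64.7 to 191 CPM, median 108, and fell by 0.45 (SE 0.143, edgeR adjusted p = 0.0262). The 3 resolved paralogs that are well expressed apart from Rps27rt thus all passed, while Rps27rt itself had −0.05.

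Core members with resolved reads that fell were Rpl8, Rps3 and Rpsa. Rpl8, a 60S protein beside the peptidyl transferase center, ran from 978 to 1406 CPM, median 1133, and from 622 to 1322 CPM, median 924. Rps3, at the messenger RNA entry site of the 40S subunit, ran from 722 to 1357 CPM, median 945, and from 517 to 1156 CPM, median 734. Rpsa ran from 1259 to 1862 CPM, median 1446, and from 800 to 1678 CPM, median 1247. The lowest bifunctional libraries lay well under the anti-PD-L1 range in each of these, and the highest lay inside it. Their log2 fold changes were −0.31, −0.35 and −0.30 (edgeR adjusted p = 0.0411, 0.0432 and 0.0474).

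Among the members with reads in copies, Rpl27 had the lowest log2 fold change. It ran from 29.3 to 56.9 CPM, median 35.2, and from 20.7 to 38.3 CPM, median 26.8, and fell by 0.50 (SE 0.121, edgeR adjusted p = 0.00924). With copies joined it fell by 0.39 (adjusted p = 0.0185). Rpl5 (−0.28), Rpl21 (−0.37), Rpl27a (−0.25), Rpl29 (−0.30), Rpl35a (−0.30), Rps13 (−0.29) and Rps18 (−0.33) passed with their own counts. With copies joined the same 7 had −0.29, −0.18, −0.15, −0.08, −0.26, −0.12 and −0.29, with adjusted p from 0.068 (Rpl5) to 0.516 (Rpl29), so that the value of Rpl5 was the same while its call was lost. The joined fit called 7 members, all of them among the 14, and 13.2% of all genes. Highest in value were Rps12 (0.63), Rpl28 (0.31) and Rps16 (0.29), which did not pass and had −0.23, 0.12 and 0.22 with copies joined. Rplp0, Rplp1 and Rplp2 had −0.22, −0.18 and −0.16, Rps19 −0.26, Rpl11 −0.17, Rpl13a −0.26, Rpl10a −0.32, Rps27a −0.25 and Rps6 −0.29, of which none passed.

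Libraries C0479 and C0484 carried much of this count. Without both of them, 1 member fell, Rps27l, by 0.32 (edgeR adjusted p = 0.0421), and the median over members was −0.12, while 3.04% of all genes fell. With scores of muscle, keratinocyte and adipocyte markers as covariates, Rps27l was again the 1 member that passed (−0.35, adjusted p = 0.0405), and 3.46% of all genes fell. Muscle markers rose in this comparison in 8 of 9 genes, T cell markers in 4 of 5 and macrophage markers in 4 of 5, while proliferation markers fell in 4 of 5. Without C0479 and C0484, 0 muscle, 2 T cell and 1 macrophage marker rose, while 4 proliferation markers fell. In the main fit Krt8, which fell by 0.59, was the only 1 of the 4 carcinoma markers to pass. The median over these 4 was 0.27. The fibroblast markers Pdgfra (0.75) and Col1a1 (0.92) rose. Without C0479 and C0484, 0 carcinoma markers and 1 fibroblast marker passed. Summed proliferation markers ran from 1062 to 1269 CPM, median 1156, in anti-PD-L1 tumors and from 645 to 1119 CPM, median 887, in bifunctional tumors. The part of these marker changes in the fall of the members was not tested. Leaving out library C0482 alone raised the count to 44 (16% of all genes), and leaving out C0484 alone lowered it to 5 (7.29%).

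The bifunctional protein was also set against the 4 trap control libraries of set 2. This asked what PD-L1 binding adds to the trap, taking (mut) to mean loss of that binding, which the labels do not explain. None of 81 members passed in either direction by edgeR or by DESeq2, with 10 at an unadjusted p under 0.05, against 15.5% of all genes. Across all genes, 0.00637% rose and 0% fell in edgeR, and 0.191% and 1.17% in DESeq2. The median over members was −0.19, close to that against anti-PD-L1, but the bifunctional libraries are shared by both comparisons. The smallest adjusted p-values were those of Rps2 (−0.55, adjusted p = 0.148), Rpl27 (−0.53, adjusted p = 0.156), Rps6 (−0.56, adjusted p = 0.182) and Rpl15 (−0.43, adjusted p = 0.213), and with copies joined these had −0.42, −0.30, −0.24 and −0.39. In libraries C0465, C0466, C0467 and C0468, Rpl22l1 lay at 123, 193, 119 and 124 CPM and Rps27l at 73.7, 78.6, 79.5 and 74.3 CPM. The Rps27l values lay inside the ranges of both other groups, and the Rpl22l1 value of C0466 stood above the other 3.

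Between the trap control and anti-PD-L1 of set 2, 0 of 81 members passed in edgeR or DESeq2, and 1 had an unadjusted p under 0.05, against 4.92% of all genes. Of all genes 0.0127% rose and 0% fell in edgeR, and 0.0191% and 0% in DESeq2. Members had a median log2 fold change of −0.03. The members nearest to the threshold were Rpl36al (−0.26), Rps27l (−0.20), Rps27a (−0.19) and Rpl15 (0.17), each with an edgeR adjusted p of 0.979.

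Trap control tumors occur in both sets, and their comparison shows how large the difference between the sets was for these genes. On the joint scaling of these 10 libraries, 61 of 80 members were lower in set 1 and 1 was higher, against 23.3% and 25.1% of all 14456 genes. The median over members was −0.55. In 43 members the 6 and the 4 libraries did not overlap, as in 36.1% of all genes. Rps6 (−1.57, edgeR adjusted p = 3.22e-05), Rpl8 (−1.01, adjusted p = 0.000108), Rps27l (−0.87, adjusted p = 0.000209) and Rpl18 (−0.88, adjusted p = 0.000217) had the smallest adjusted p-values. For Rps6, joining the copies gave −0.76 (adjusted p = 0.00123), for Rps7 −0.91 in place of −1.92, and for Rps12 −0.46 in place of −1.56. Rpl10a, the 1 member that was higher (0.95, adjusted p = 0.00398), had −0.22 with copies joined. The treatment label is the same on both sides, so this difference goes with the sample numbers and with the structural RNA share, and these cannot be told apart. Once that share was a covariate, 4 members were lower and 0 higher, against 1.52% and 5.56% of all genes.

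**Figure D4:**
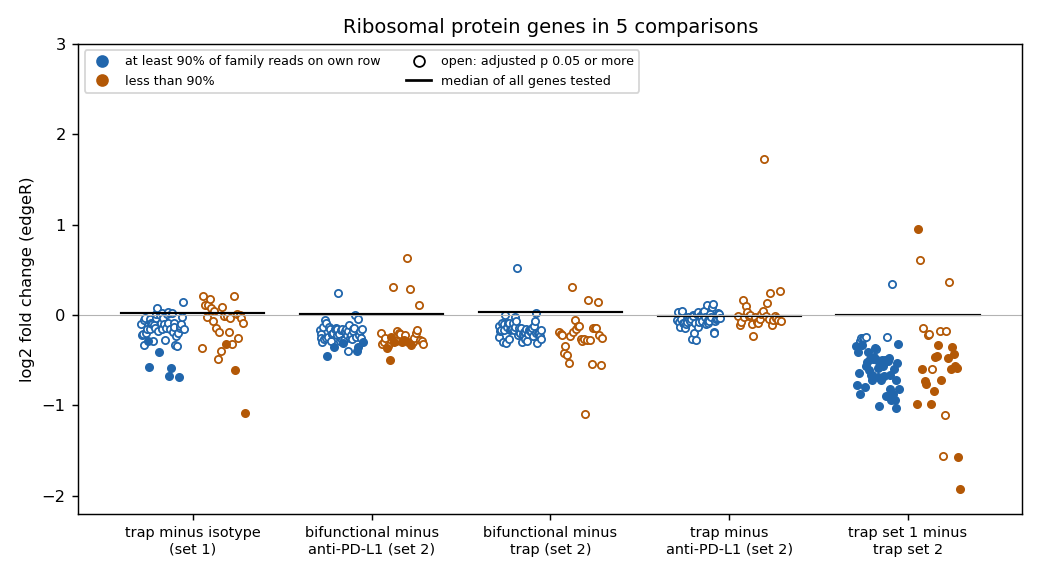
Log2 fold changes of the members that passed the low-count filter in 5 comparisons (points), blue for members with at least 90% of family reads and brown for the others, filled where the adjusted p was under 0.05, with a black line at the median of all genes tested. Members lie mostly below the line in the comparison of bifunctional with anti-PD-L1 tumors (median −0.22) and far below it between the trap control sets (median −0.55).

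The effect of adding a trap to a non-trap antibody was then compared between the sets, as bifunctional minus anti-PD-L1 in set 2 less trap control minus isotype control in set 1. Of 82 members, 1 differed upward and 1 downward, against 3.96% and 3.95% of all genes. For Rps27rt the difference was 0.67 (SE 0.185, edgeR adjusted p = 0.0239), made up of −0.69 in set 1 and −0.05 in set 2. For Rpl27 it was −0.54 (SE 0.172, adjusted p = 0.0445), made up of 0.07 and −0.50. The Rps27rt difference held with copies joined (0.67), while that of Rpl27 became −0.33 (adjusted p = 0.133). Rpl22l1 and Rpl5 are the 2 members that passed as lower in both sets, in comparisons that share no library. Of all genes 4.15% were lower in set 1 and 13.1% in set 2. The share lower in both is not given here, so this count cannot be set against it. With copies joined Rpl5 had −0.29 (edgeR adjusted p = 0.068) in set 2.

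The counts of a paralog and its partner in a library share its depth, so their ratio is free of scaling. Other library effects may remain in it. These ratios were chosen after the results above were seen. Rpl22l1 and Rpl22 encode alternative forms of the same 60S protein, and their balance differs between tissues and tumors. The ratio of Rpl22l1 to Rpl22 ran from 1.05 to 1.42, median 1.17, in isotype control tumors and from 0.827 to 1.08, median 0.984, in trap control tumors of set 1. In set 2 it ran from 0.904 to 1.04, median 1.02, in anti-PD-L1 tumors, from 0.854 to 1.07, median 0.952, in the trap control and from 0.591 to 0.946, median 0.759, in bifunctional tumors. Each of the 10 bifunctional libraries lay below the anti-PD-L1 median, and the groups overlapped only between 0.904 and 0.946. The log2 ratio differed by −0.40 between bifunctional and anti-PD-L1 (two-sided permutation p = 6e-05, adjusted p = 0.00072 over 12 tests). Without C0479 and C0484 it was −0.32. In set 1 all 6 trap control libraries lay below the isotype control median (−0.29, exact permutation adjusted p = 0.00899). Against the trap control of set 2, bifunctional tumors had −0.33 (exact permutation adjusted p = 0.0288), while the trap control and anti-PD-L1 differed by −0.07 (exact permutation adjusted p = 0.3).

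The balance of Rps27l and Rps27rt differed in opposite directions in the 2 sets, and the difference between the sets was not tested for the ratio. The ratio of Rps27l to Rps27rt ran from 0.12 to 0.189, median 0.155, in isotype control tumors and from 0.17 to 0.314, median 0.203, with the trap control. It was higher by 0.50 on the log2 scale (exact permutation adjusted p = 0.015). In set 2 it ran from 0.245 to 0.336, median 0.287, in anti-PD-L1 tumors and from 0.171 to 0.301, median 0.24, in bifunctional tumors, a difference of −0.32 (permutation adjusted p = 0.026). The 4 trap control libraries of set 2 lay between 0.194 and 0.333. Neither difference that involved them passed (exact permutation adjusted p = 0.3 and 0.48). Rpl36al and Rpl36a kept ratios whose differences did not pass in any of the 4 comparisons (permutation adjusted p from 0.122 to 0.671).

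The other paralogs were close to silent. Rpl3l, the form of Rpl3 found in skeletal muscle and heart, had at least 10 counts in 4 libraries, with 117 in C0463, 60 in C0479, 59 in C0484 and 13 in C0465. These 4 libraries each held at least 386 CPM of muscle markers. The other 36 libraries had at most 6 counts of Rpl3l, and their muscle markers had a median of 1.51 CPM and a maximum of 275 CPM. Rpl10l, the testis form of Rpl10, had 1 count in each of 2 libraries and 0 in the others, where a count of 0 allows up to 3 counts. Rpl39l, known from testis and some tumors, reached 50 counts, in C0479.

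**Figure D5:**
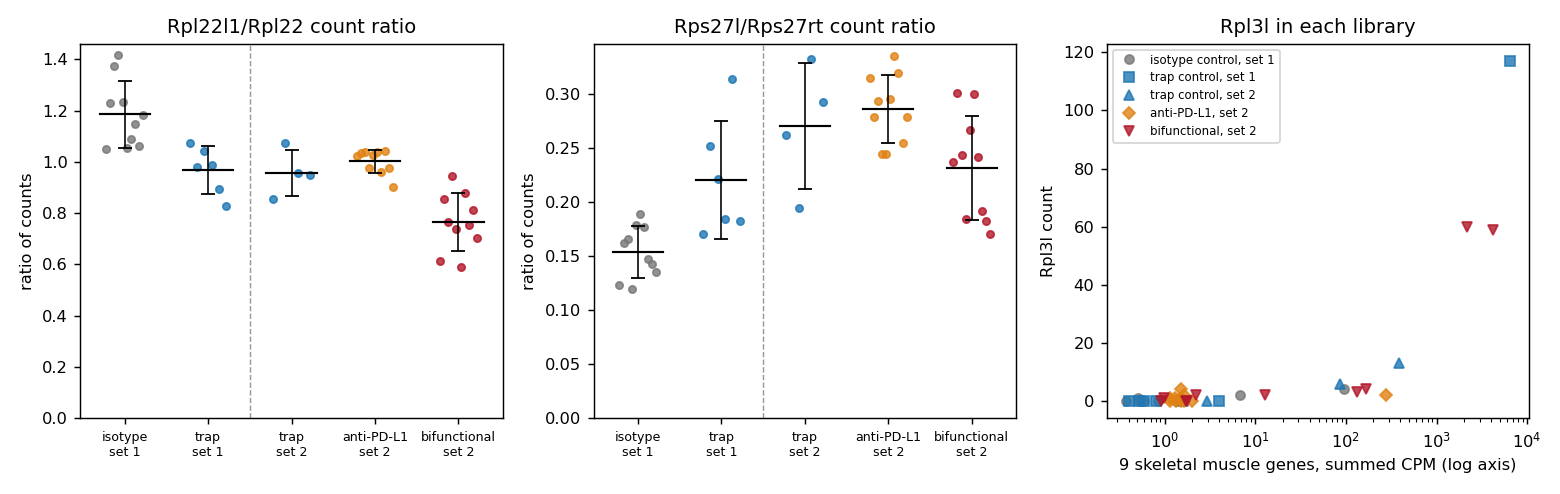
Left and middle, ratio of counts in single libraries (points) of Rpl22l1 to Rpl22 and of Rps27l to Rps27rt, by treatment and set, with lines for the group mean and SD. Right, Rpl3l counts against the summed CPM of 9 skeletal muscle genes (log axis), where the libraries with 117, 60, 59 and 13 counts have the most muscle RNA.

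Rack1 and Fau, ribosomal protein genes outside the naming rule, were read beside the members. Rack1, a scaffold on the 40S subunit, fell in bifunctional against anti-PD-L1 tumors by 0.38 (edgeR adjusted p = 0.0362). This call was lost without C0479 and C0484. Fau, which encodes a ubiquitin-like protein fused to a 40S protein, had −0.16 and did not pass. In set 1 Fau and Rack1 had −0.34 and −0.14, and neither passed.

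Other genes of ribosome production and energy supply were also lower in bifunctional than in anti-PD-L1 tumors. The share of all genes that fell was 13.1%. Ribosome biogenesis factors fell in 22 of 32 genes, with a median of −0.28, among them Nhp2 (−0.47), a box H/ACA ribonucleoprotein, and Ebna1bp2 (−0.40), a nucleolar processing factor. RNA polymerase I genes fell in 5 of 11, with its initiation factor Rrn3 at −0.33 (edgeR adjusted p = 0.0038). Mitochondrial ribosomal proteins fell in 45 of 77, with Mrpl22 at −0.48 and Mrpl18 at −0.35. Of the respiratory chain 41 of 85 fell and 2 rose, with Atp5g1, a subunit of ATP synthase, at −0.43. Translation factors fell in 7 of 21, such as the elongation factor subunit Eef1d (−0.38) and the helicase Eif4a1 (−0.32). Whether these shares differ from that of the members was not tested. Without C0479 and C0484 the counts were 9 of 32, 1 of 11, 4 of 77, 1 of 85 and 2 of 21. The share of all genes that fell was then 3.04%.

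In set 1 few genes of these lists passed between the trap and isotype control, where 3.19% of all genes rose and 4.15% fell. None of 32 biogenesis factors passed, Polr1a, the largest subunit of RNA polymerase I, rose by 0.35, and 1 of 77 mitochondrial ribosomal protein genes rose and 2 fell. Of 81 respiratory chain genes 2 rose, Ndufb7 (0.40) and Ndufs7 (0.34), and 2 fell, Atp5l (−0.44) and Cox7b (−0.38). Translation factors fell in 2 of 21, Eif3e (−0.37) and Hnrnpa1 (−0.31). Among growth regulators Rps6kb1, the S6 kinase, fell by 0.38 (edgeR adjusted p = 0.0311). In set 2 Mxd1, an antagonist of Myc, was the growth regulator that passed, and it rose by 0.61 (adjusted p = 0.0379). The p53 target Ccng1 fell by 0.31 there (edgeR adjusted p = 0.024). The calls of Mxd1 and Ccng1 were lost without C0479 and C0484. In the difference of the trap effects, biogenesis factors were lower in 8 of 32, against 3.95% of all genes. Among them were Nop56 (−0.65), a box C/D protein, and Bop1 (−0.69), a 60S processing factor.

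Members with and without a pyrimidine run at the start had similar medians, and their difference was not tested. Between trap and isotype control the medians were −0.08 over 20 members with a run and −0.12 over 39 without. Of these members 3 and 5 fell (4 and 3 with copies joined), against 4.15% of all genes (4.21% joined). Between bifunctional and anti-PD-L1 the medians were −0.21 and −0.25, and 3 of 20 and 8 of 41 fell, against 13.1% of all genes. With copies joined 0 and 6 fell there, against 13.2% of all genes, with medians of −0.19 and −0.23. Between the sets of the trap control the medians were −0.49 and −0.58. Here 18 of 20 and 30 of 40 were lower in set 1 (18 and 35 with copies joined), against 23.3% of all genes.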

How the data were processed

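Bulk RNA-seq of 40 EMT-6 tumors was analysed. Per the labels' protocols, total RNA was depleted of ribosomal RNA and libraries were primed at random. Expected counts and TPM per gene were deposited by the authors, and the submitters' processing notes name Bowtie2 2.3.1, RSEM 1.2.31 and the mouse build mm10. Their settings, the strand and the annotation release are not given in the sources used here. Gene names were taken from GENCODE M21, which held 37688 (96.6%) of 39012 gene IDs. Of all values 14% were not whole, against 74% of the members' values.

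Expected counts were rounded and tested with edgeR 4.0.16 (R 4.3.3) by the quasi-likelihood test with TMM scaling and its low-count filter, one fit per set, with p-values adjusted over all genes by Benjamini-Hochberg at 0.05. Library totals of 13495835 to 27658262 counts set the precision. Log2 values and CPM come from these fits. Near-identical copies were found with BLAST 2.17.0 (at least 95% identity over at least 90% of the coding sequence, which had to fill at least 25% of the copy's transcript). DESeq2 1.42.0, limma 3.58.1 on log2(TPM + 1), other scalings, covariates, joined copies and left-out libraries were alternatives. Ratios of paralog pairs were tested by two-sided permutation, exact for groups of 6 and 10 or 4 and 10. The fits were tested on simulated data: for trap minus isotype control, 90% of genes lowered by 1 on the log2 scale were recovered. Between the trap control sets 84% of genes lowered by 1 were recovered. For the difference of the trap effects, 80% of genes raised by 1 were recovered. Genes were simulated independently of each other. Shifts below 1 were not simulated, so recovery at the size of most member changes is not known. Named genes were the 4 members of each subunit with the smallest adjusted p, the 3 highest and 3 lowest log2 fold changes, the 5 highest and 5 lowest TPM, paralogs, and 11 members given by name. Of these, the comparisons without calls are named only in part. The members, the lists and the ratios were chosen with earlier results of these data known. No label says that tumors of a group came from separate experiments, so p-values measure the spread between these tumors.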

Additional observations from a re-analysis of the deposited data

Results flagged for a closer look

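Dixon's criterion was applied to the single values in 130 groups of 4 to 10 libraries, and 16 stood apart. Chance alone gives about 1 in 20, and members move together, so that a library high in several members is counted several times.

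Library C0466, of the trap control in set 2, was the highest of 4 in several values. Its ribosomal protein share of all counts was 4.16%, against 3.27% to 3.32% in the other 3, and 5.92% against 4.64% to 4.72% with copies joined. Rpl22l1 was 193 CPM there (119 to 124 in the others), Rps15a 569 CPM (365 to 376), Rps23 313 CPM (196 to 214) and Rps3 1250 CPM (832 to 900).

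In the trap control of set 1, C0459 was the highest in Rpl27a, at 18.6 CPM (14.7 to 15.9), and in Rps7, at 127 CPM (42.8 to 64.3). C0463, the library with the most muscle marker RNA, had 7.72 CPM of Rpl3l against 0 in the others. Among anti-PD-L1 tumors, C0469 was the highest in Rpl27a, at 47.4 CPM (29.5 to 38.6), and in Rps27l, at 127 CPM (72.9 to 99.6). C0478 was the lowest in Rpl29, at 7.85 CPM (10 to 12.2), and the highest in Rpl3l, at 0.164 CPM (0 to 0.0816). Among bifunctional tumors, C0482 was the highest in Rpl36al, at 227 CPM (129 to 180), and in Rps3, at 1160 CPM (517 to 849). C0479 was the highest in Rpl39l, at 1.92 CPM (0.0437 to 0.866).

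The trap effects of the 2 sets differed in the interaction test for Rps27rt, by 0.67, and for Rpl27, by −0.54 on the log2 scale (edgeR adjusted p = 0.0239 and 0.0445). The second was −0.33 (adjusted p = 0.133) with the reads of copies joined.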

How the results depend on the processing

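In trap minus isotype control, 9 members were lower in the main analysis, and the other fits gave 6 to 11, except DESeq2 (15) and log2(TPM + 1) (0). The fit of all 40 libraries also called 1 member higher. Leaving out single libraries gave 6 to 12. In these 16 fits Rps15a, Rps27rt, Rps14, Rps23, Rpl22l1 and Rpl39 kept their calls each time. Rpl22 kept its call in 3 of them, Rpl5 in 6 and Rps7 in 7.

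In bifunctional minus anti-PD-L1, 14 were lower. The count was 7 with DESeq2 size factors, 8 with the protein-coding total as library size, 7 without structural RNA, 8 without a filter, 0 in log2(TPM + 1), 35 with the structural RNA share as covariate, 4 with the length trend removed, 7 with copies joined and 8 with only the groups compared. It was 1 without C0479 and C0484, with host tissue scores as covariates, and with copies joined but without C0479 and C0484. Leaving out single libraries gave 5 (C0484) to 44 (C0482). No member was higher, except 1 each without a filter (Rpl3l), with the length trend removed (Rpl28) and in the fit of 40 libraries. Among values of the called members under alternatives, 90 kept their call, 103 lost it and 3 turned sign: Rpl27a (0.038) and Rpl5 (0.0549) in log2(TPM + 1), and Rpl29 (0.0246) with copies joined but without C0479 and C0484.

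Between the trap control sets, 61 were lower and 1 higher. The lower count was 4 with the structural RNA share as covariate and 28 with the length trend removed, and 46 to 63 leaving out single libraries. The higher count was 2 with the protein-coding total, 3 in DESeq2, 0 in log2(TPM + 1), 0 with the structural covariate, 4 with the length trend removed, and 1 to 2 leaving out single libraries. Rpl10a turned to −0.44 in log2(TPM + 1) and −0.22 with copies joined.

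In the difference of the trap effects the lower call was lost (0) with the protein-coding total, no filter, log2(TPM + 1), the length trend removed or copies joined, and the higher count was 6 with the length trend removed. Leaving out single libraries gave 1 to 2 higher and 0 to 3 lower.

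The mean share of all counts was 1.5%, 1.4%, 3.51%, 3.59% and 3.17% in isotype control, trap control of set 1, trap control of set 2, anti-PD-L1 and bifunctional tumors. As a share of protein-coding and copy counts, with copies joined, it was 4.90%, 4.45%, 6.51%, 6.59% and 5.85%. Median TPM over members, rescaled over protein-coding genes, was 1339, 1349, 1921, 1922 and 1772. Pyrimidine runs numbered 36 within 5 bases of the start. The cause of these changes was not tested. The 5 paralog ratio differences that passed kept direction and an unadjusted permutation p under 0.05 leaving out any library, and the other 7 were not refitted so. No paired analysis was possible because the labels give the groups no shared replicate numbers.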
